A study of Mus musculus with 32 samples.

Results

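Prospermatogonia of male fetuses whose mothers were given vinclozolin (VZ) were compared with those of male fetuses whose mothers were given oil. The comparison took the 3 arrays titled G1R VZ M and the 3 arrays titled G1R Oil M, 6 of the 32 arrays of the series, and was chosen by these labels and by no measured value. Pregnant G0 dams received VZ at 100 mg per kg per day, or corn oil alone, by oral gavage from 12.5 to 16.5 days post coitum (dpc), and germ cells were collected at 17.5 dpc. All 6 samples had the genotype FVBxOG2, an FVB dam crossed with an OG2 sire, and OG2 mice carry EGFP under the Oct4 promoter, so the cells studied are those that were EGFP-positive in the sort. The labels call the cells primordial germ cells. RNA was read on Affymetrix mouse gene arrays, and each value is a log2 probe set level after RMA, with 35556 probe sets (here called probes) measured on every array. Further arrays are used below only to show where this comparison differs: female germ cells of the same exposure (G1R VZ F and G1R Oil F), prospermatogonia of the next, unexposed generation with the reciprocal genotype OG2xFVB (G2R VZ M and G2R Oil M), and prospermatogonia exposed to the phthalate DEHP at 750 mg per kg (G1R DEHP M) or to bisphenol A (BPA) at 0.2 mg per kg (G1R BPA M), each group with 3 arrays. The mean level of a gene list is also shown once in all 11 groups of the series. The sources used here do not say whether the 3 arrays of a group came from separate litters, so p-values measure the spread between these samples, which may be technical.

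Vinclozolin is a fungicide whose breakdown products act against androgens. In late gestation the male germ cells of the mouse, called prospermatogonia, sit inside the testis cords in mitotic arrest and lay down DNA methylation across the genome, while Sertoli cells surround them and Leydig cells outside the cords make androgen. Female germ cells of the same age are in meiotic prophase. Small nucleolar RNAs (snoRNAs), which come up repeatedly below, guide the chemical modification and the cutting of ribosomal RNA, and in mammals most are released from introns of other genes.

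The cells, which the study calls prospermatogonia, had high levels of Dnmt3l and Pou5f1. Dnmt3l, which helps the DNA methyltransferases of prospermatogonia, had levels of 11.74, 11.97 and 11.71 in the oil arrays and 11.64, 11.77 and 11.91 in the VZ arrays, against means of 6.09 and 6.12 in the oil and VZ females. Pou5f1, the gene whose promoter drives the sorted EGFP, had levels of 11.10, 10.51 and 10.87 with oil and 11.10, 11.32 and 10.92 with VZ. Of 25 prospermatogonia genes on a list, 1 had an unadjusted p under 0.05 and a higher level with VZ and 3 had a lower one, with a median log2 difference of 0.02. At that p 8.99% of all genes were higher and 10.3% lower, so these counts lie near those shares. By level, 20 of the 25 lie in the highest of the 4 bins described below, whose median was 0.09. The 3 lower genes were Pld6, a piRNA-pathway nuclease (-0.36), Nanos3, an RNA-binding protein of germ cells (-0.31), and Sohlh1, a germ cell transcription factor (-0.25). The run names in the study's sample list number the oil males before the VZ males, so place in the run and treatment cannot be told apart.

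Between VZ and oil, 2 of 35556 probes (0.00562%) passed an adjusted p of 0.05 in limma, and both fell. The lncRNA Gm10353 had levels of 8.04, 8.07 and 8.15 in the oil arrays and 7.55, 7.38 and 7.55 in the VZ arrays. All 3 VZ arrays lay below all 3 oil arrays, and the log2 difference was -0.59 (SE 0.095, limma adjusted p = 0.0321). Without oil array 1 or 3 or VZ array 1, 2 or 3 its adjusted p was between 0.0722 and 0.144, while its log2 difference stayed between -0.53 and -0.62. The other probe, which the annotation used here pairs with no gene, had levels of 6.96, 7.17 and 7.19 with oil and 6.27, 6.18 and 5.998 with VZ, a log2 difference of -0.96 (SE 0.14, limma adjusted p = 0.0148). Without oil array 3 or VZ array 2 or 3 its adjusted p was between 0.0722 and 0.0936. In DEHP-exposed males, which are set against the same oil arrays, the log2 differences of Gm10353 and of this probe were -0.41 and -0.80. In VZ-exposed females they were -0.06 and -0.03.

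A wide but shallow difference lay under this short list. At an unadjusted p under 0.05, 2949 probes (8.29%) were higher with VZ and 3544 (9.97%) were lower, and 4530 (12.7%) had all VZ arrays above all oil arrays while 5261 (14.8%) had all below. Past a fold of 1.5 at the same p, 627 probes (1.76%) remained, 404 (1.14%) higher and 223 (0.627%) lower. When the p-values were adjusted over the 21789 probes that name 1 gene, fitted alone, 111 (0.509%) passed, 46 higher and 65 lower. The count was sensitive to the model: it was 1804 with array weights and 0 when only the 12 arrays of G1R males were fitted.

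The direction of the difference followed the level of the gene. With 1 probe per gene, the median log2 difference over 19938 genes was -0.01, but after a split by level into 4 bins of equal size it was -0.12 in the bin of lowest level and 0.09 in the bin of highest level. In the lowest bin 77 genes were higher and 825 lower (16.5%) at an unadjusted p under 0.05, and in the highest bin 923 were higher (18.5%) and 67 lower. This tilt, the median of the highest bin minus that of the lowest, was 0.21, 0.17 and 0.23 in the VZ arrays, measured from the oil mean. It was -0.09, 0.13 and -0.04 in the oil arrays, each measured from the mean of the other oil arrays. All 3 VZ arrays exceeded all 3 oil arrays. Taken between groups, the tilt was 0.21 for G1R VZ males, and 0.14 for DEHP and 0.04 for BPA males against the same oil arrays. It was 0.11 for VZ females and -0.08 for G2R VZ males, each against its own oil group. A tilt in this direction was thus not particular to VZ males. Whether it lies in the cells or in the arrays was not tested. With cyclic loess on top of RMA, which takes out differences that follow level, 3287 probes were higher and 2107 lower, so that the share of higher ones among those with an unadjusted p under 0.05 went from 45.4% to 60.9%. For gene groups below, the bin median is therefore given, as the median over the members of the values of their own level bins.

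**Figure D1:**
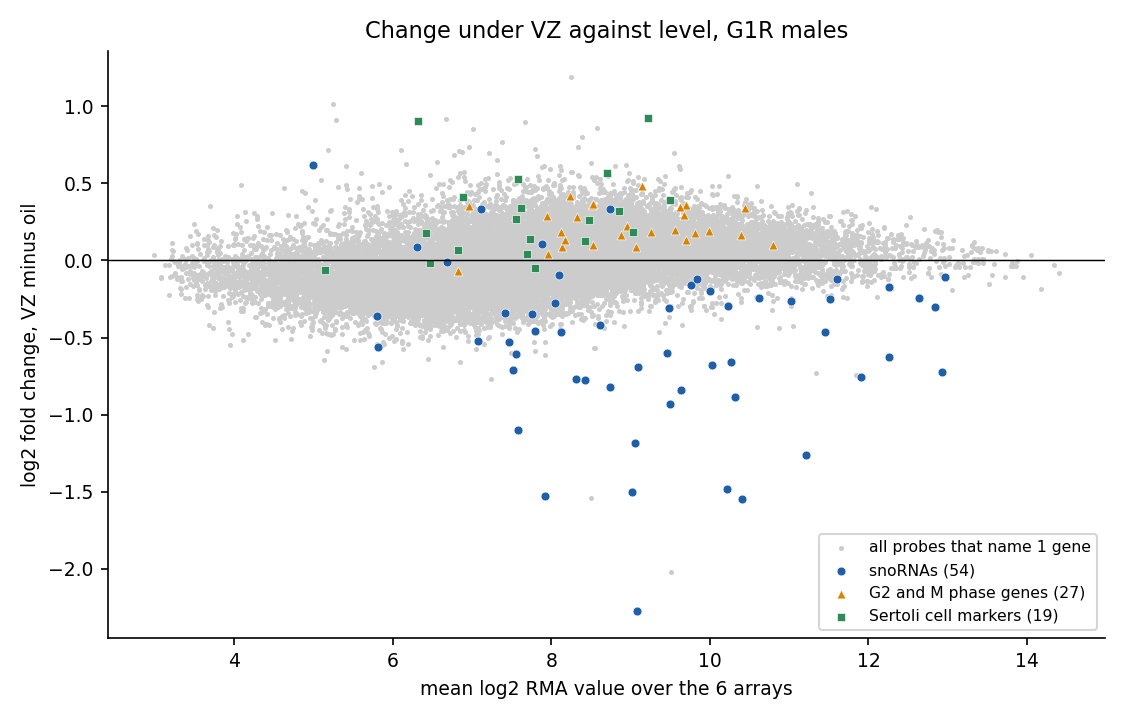
Log2 difference of VZ minus oil prospermatogonia (vertical axis) against the mean log2 level (horizontal axis), for all probes that name 1 gene. The snoRNAs, G2 and M phase genes and Sertoli cell markers are coloured, with 1 probe per gene. Genes of low level lie mostly below 0 and genes of high level mostly above, and most snoRNAs lie below 0 although many have high levels.

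The genes with the smallest p-values among the higher ones were led by Slco4c1, an organic anion transporter that carries thyroid hormone and steroid conjugates. Its levels were 6.70, 6.50 and 6.56 with oil and 7.63, 7.64 and 7.05 with VZ. The log2 difference was 0.86 (SE 0.16, limma adjusted p = 0.0704 over all probes), with no overlap between the groups. In DEHP-exposed males it was 0.78 against the same oil arrays, in females 0.05 and in G2R males 0.00033. The next were BC031361 (0.62), Vps50 (0.41), the nuclear import receptor Tnpo1 (0.42), the ciliary transport subunit Ift20 (0.42), Ivns1abp (0.32), Tlcd4 (0.46), Zfp518a (0.45), the sialic acid acetyltransferase Casd1 (0.36), Rmdn2 (0.50), the m6A reader Ythdc1 (0.34) and Tbc1d19 (0.46), with limma adjusted p-values between 0.0704 and 0.0717. A second Ivns1abp probe went the other way (-0.18). Among the lower ones Gm10353 was followed by B130046B21Rik (-0.48), the axonemal dynein Dnah17 (-0.33), the ubiquitin ligase Trim11 (-0.40), Cd300lg (-0.43), the lens crystallin Cryba4 (-0.46), Oxld1 (-0.45), the B-cell coactivator Pou2af1 (-0.48), Bpifb3 (-0.54), A830092H15Rik (-0.41), the transcription factor Spdef (-0.43) and the interferon Ifna12 (-0.64), all with a limma adjusted p of 0.0704 other than Gm10353. Several of these lower genes are known from tissues other than the germline. Oil means of the lower genes went from 5.45 (Ifna12) to 8.09 (Gm10353). In the lowest level bin and the next one up, 16.5% and 17% of genes were lower at an unadjusted p under 0.05.

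**Figure D2:**
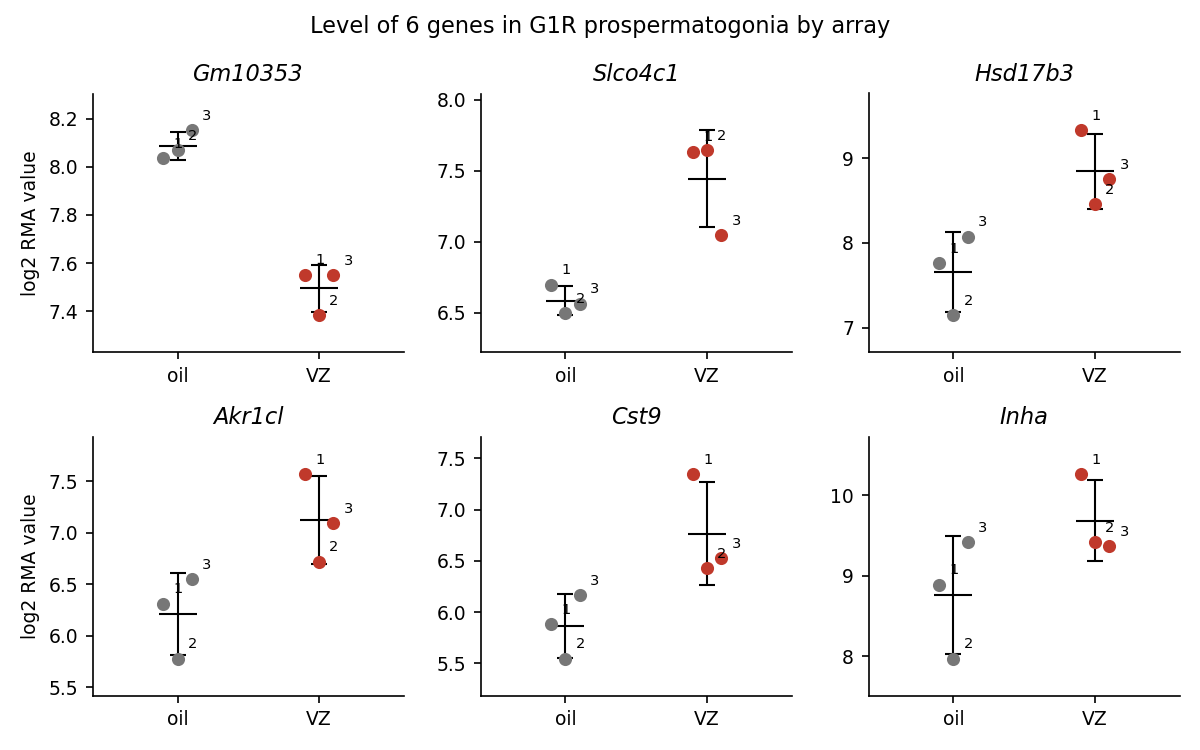
Log2 level of 6 genes in each of the 3 oil and 3 VZ arrays (points), with the group mean and SD (bars). Gm10353 lies lower in every VZ array and Slco4c1, Hsd17b3, Akr1cl and Cst9 higher in every VZ array than in any oil array, while the groups overlap for Inha.

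The 250 bases before the annotated start of 4 genes with leading differences are shown for their regulatory context, from RefSeq on GRCm38.p6, read along the gene's own strand. Capitals mark the hexamers AGAACA and TGTTCT, the 2 orientations of the core to which steroid receptors of the androgen and glucocorticoid type bind. The windows are chr19:8942391-8942640 (minus strand) for Gm10353, chr1:96872172-96872421 (minus strand) for Slco4c1, chr13:64089202-64089451 (minus strand) for Hsd17b3 and chr2:158361523-158361772 (minus strand) for Snhg17.
Gm10353: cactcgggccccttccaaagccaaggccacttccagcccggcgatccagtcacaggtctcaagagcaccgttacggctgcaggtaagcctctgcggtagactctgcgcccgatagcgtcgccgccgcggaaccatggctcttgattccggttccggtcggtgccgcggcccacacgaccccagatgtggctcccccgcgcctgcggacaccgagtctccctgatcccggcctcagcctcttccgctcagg
Slco4c1: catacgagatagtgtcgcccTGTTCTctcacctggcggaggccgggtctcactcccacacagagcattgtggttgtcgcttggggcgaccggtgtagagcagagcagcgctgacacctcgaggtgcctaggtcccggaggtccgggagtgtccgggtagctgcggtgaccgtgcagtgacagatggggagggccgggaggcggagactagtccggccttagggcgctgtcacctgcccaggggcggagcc
Hsd17b3: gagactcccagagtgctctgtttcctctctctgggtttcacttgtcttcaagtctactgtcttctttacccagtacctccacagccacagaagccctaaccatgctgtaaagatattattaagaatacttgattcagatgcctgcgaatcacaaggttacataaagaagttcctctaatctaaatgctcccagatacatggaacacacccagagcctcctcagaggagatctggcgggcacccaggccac
Snhg17: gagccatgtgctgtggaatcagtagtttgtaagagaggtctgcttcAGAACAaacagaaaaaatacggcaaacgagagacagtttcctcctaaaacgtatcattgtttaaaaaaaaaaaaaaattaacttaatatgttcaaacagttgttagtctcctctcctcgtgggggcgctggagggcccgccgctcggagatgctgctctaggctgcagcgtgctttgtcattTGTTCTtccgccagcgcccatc
Slco4c1 held 1 such hexamer and Snhg17 held 2, while Gm10353 and Hsd17b3 held none. Either hexamer lay in the windows of 4369 of 27025 genes (16.2%), in 3 of the 11 windows found for the 12 higher genes with the smallest p (27.3%) and in 2 of the 10 found for the 12 lower ones (20.0%). The full palindrome of both, 3 bases apart, was in the window of 1 gene of all and in none of these. A hexamer in a window is a description of the letters and not a binding site.

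The largest higher difference by size was that of Hsd17b3, the dehydrogenase that makes testosterone from androstenedione and that in the fetal mouse testis is known from Sertoli cells. Its levels were 7.76, 7.15 and 8.07 with oil and 9.33, 8.46 and 8.75 with VZ. The VZ arrays lay above all oil arrays, by 1.19 on the log2 scale (SE 0.43, limma unadjusted p = 0.0106, adjusted p = 0.154). In DEHP-exposed males the difference from the same oil arrays was 0.04, and VZ exceeded DEHP directly by 1.15 (limma unadjusted p = 0.0132). In BPA-exposed males it was 1.35 against the same oil arrays, in females 0.05 and in G2R males 0.38. Akr1cl, an aldo-keto reductase, had levels of 6.31, 5.78 and 6.55 with oil and 7.57, 6.72 and 7.09 with VZ, a log2 difference of 0.92 (limma adjusted p = 0.230), and 1.36 in BPA-exposed males. Other large ones were the nucleosome-binding Hmgn5 (0.91), Anxa5, a phospholipid-binding annexin (0.86), and Ppt1, a lysosomal thioesterase (0.74), and none of them passed the adjusted test. In BPA-exposed males these 3 had differences of 0.58, 1.31 and 1.02.

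Sertoli cell markers are given beside Hsd17b3. Inha, the inhibin alpha subunit, had levels of 8.89, 7.97 and 9.42 with oil and 10.27, 9.42 and 9.37 with VZ, and Cst9 had 5.89, 5.55 and 6.16 with oil and 7.35, 6.43 and 6.52 with VZ. Of the 19 markers measured, 16 lay above 0 with a median of 0.26 (bin median -0.08), and 1 (Nr0b1, 0.41) was higher at an unadjusted p under 0.05, where 8.99% of all genes were. Their summed level, as a mean per array, was 7.57, 7.33 and 7.76 with oil and 8.08, 7.75 and 7.70 with VZ, so the ranges overlapped, and in the 3 G1R BPA M arrays it went from 7.51 to 8.86. With this mean as a covariate, chosen after seeing the data, the Hsd17b3 difference was 0.58. The part of Sertoli cell RNA in the Hsd17b3 and Akr1cl values was not tested further, and in these bulk samples more cells of a type and more RNA per cell cannot be told apart. Markers of fetal Leydig cells (10 genes, median -0.02) and of peritubular and interstitial cells (16 genes, median 0.02) had 0 and 0 higher and 0 and 1 lower genes at an unadjusted p under 0.05. Macrophage and white blood cell markers (12 genes, median -0.19, bin median -0.10) and red blood cell markers (9 genes, median -0.20, bin median -0.08) had 3 lower genes each and none higher, where 10.3% of all genes and 16.5% of the lowest level bin were lower.

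Androgen-responsive genes showed no common direction. Of 28 androgen-responsive genes, 2 were higher and 2 lower at an unadjusted p under 0.05, with a median of 0.01, where 8.99% of all genes were higher and 10.3% lower. The 4 were Odc1, the first enzyme of polyamine synthesis (0.20), Herc3 (0.24), Spdef (-0.43) and the transcription factor Maf (-0.28). Of 21 genes of androgen synthesis and steroid metabolism, 4 were higher and 0 lower: Hsd17b3, the hydroxysteroid dehydrogenases Hsd17b12 (0.31) and Hsd17b7 (0.30), of which the last also serves cholesterol synthesis, and the reductase Srd5a3 (0.29). The median of these 21 was 0.10 and their bin median -0.08. The Leydig cell enzymes and transporter of the pathway had differences of -0.20 for Cyp17a1, -0.07 for Cyp11a1 and -0.02 for Star. Of 19 genes of cholesterol synthesis and uptake, 5 were higher and 0 lower, with a median of 0.16 (bin median 0.09), and without VZ array 3 the number higher was 8. Of 23 steroid receptor chaperones and coregulators, 5 were higher and 0 lower with a median of 0.12, and 22 of these genes lie in the highest level bin, whose own median was 0.09.

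The group that stood lowest with VZ was the snoRNAs. Of 54 measured, 31 were lower and 2 higher at an unadjusted p under 0.05, where 10.3% and 8.99% of all genes were. In 32 of the 54 all VZ arrays lay below all oil arrays (15.3% of all genes) and in 3 all lay above. The median log2 difference was -0.46, while 30 of them are in the highest level bin, whose median was 0.09. Without oil array 1 or VZ array 3 the number lower was 19, and the median stayed between -0.41 and -0.55 with any 1 array left out. None passed the adjusted test over all probes, and 6 were among the 111 that passed over probes naming 1 gene.

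Snora33 had the largest difference of all genes. Its levels were 10.32, 10.26 and 10.08 with oil and 8.23, 7.70 and 7.91 with VZ. The groups were far apart, by -2.28 on the log2 scale (SE 0.57, limma adjusted p = 0.0838). Snora73a, one of a pair of near-identical snoRNAs whose probes may share signal, had levels of 11.41, 11.11 and 11.03 with oil and 9.52, 10.12 and 9.26 with VZ, a difference of -1.55, and its copy Snora73b had one of -1.48. Snord42a had levels of 10.88, 10.72 and 10.68 with oil and 9.92, 9.90 and 9.79 with VZ, a difference of -0.89. Snora62 (-1.10) and Snord55 (-0.69) completed the 6. Outside the list of 54, the U3 RNA Rnu3a, which acts in the first cuts of the ribosomal RNA precursor and has near-identical copies, had levels of 10.53, 10.20 and 10.83 with oil and 8.57, 8.80 and 8.13 with VZ, a difference of -2.02. Among the other listed snoRNAs, Snora20 had a difference of -1.53, Snora75 one of -1.50 and the U8 RNA Snord118 one of -1.27. The 2 that were higher at an unadjusted p under 0.05 were Snord42b (0.33), which lies in the same gene as Snord42a, and Snord61 (0.62).

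Both classes of snoRNA took part. Of 20 H/ACA snoRNAs (Snora), which guide pseudouridylation, all lay below 0, 14 of them at an unadjusted p under 0.05, with a median of -0.68. Of 31 C/D snoRNAs (Snord), which guide methylation of the ribose, 27 lay below 0, 17 were lower and 2 higher, with a median of -0.42. The 3 Cajal body RNAs (Scarna) had a median of -0.17, and none of them had an unadjusted p under 0.05.

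Most measured genes whose coordinates contain a snoRNA did not share the difference, while the noncoding host Snhg17 was lower too. In RefSeq 30 of the snoRNAs lie inside 1 measured gene, 26 such genes in all, here called host genes. These genes were matched by position alone, without a check of strand or intron. Some may therefore not be the gene that releases the snoRNA. Of these 30 snoRNAs 26 lay below 0 and 17 were lower at an unadjusted p under 0.05, with a median of -0.44. Of the 26 host genes 9 lay below 0, and 0 were lower and 5 higher at that p. Their median was 0.01, with a range from -0.18 for Gas5 to 0.33. At that p 8.99% of all genes were higher and 10.3% lower. In the highest level bin, whose median was 0.09, 18.5% were higher and 1.34% lower. Rps12, the ribosomal protein gene around Snora33, had means of 11.67 with oil and 11.68 with VZ. The noncoding host Snhg17, which holds none of these 30, had levels of 10.26, 9.36 and 9.68 with oil and 8.42, 8.45 and 7.96 with VZ, a difference of -1.49 (limma adjusted p = 0.0893), and its other probes gave -1.54 and -0.10. The noncoding host list of 5 genes had a median of -0.18 (bin median 0.09). This is the value of Gas5 on its probe of highest level, and other Gas5 probes gave 0.24, 0.23 and 0.71. The mean of this list was 9.06, 8.86 and 8.85 with oil and 8.50, 8.65 and 8.46 with VZ, without overlap. Of 60 cytosolic ribosomal protein genes, 1 was higher and 1 lower, with a median of -0.03 (bin median 0.09), and 53 lie in the highest level bin.

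**Figure D3:**
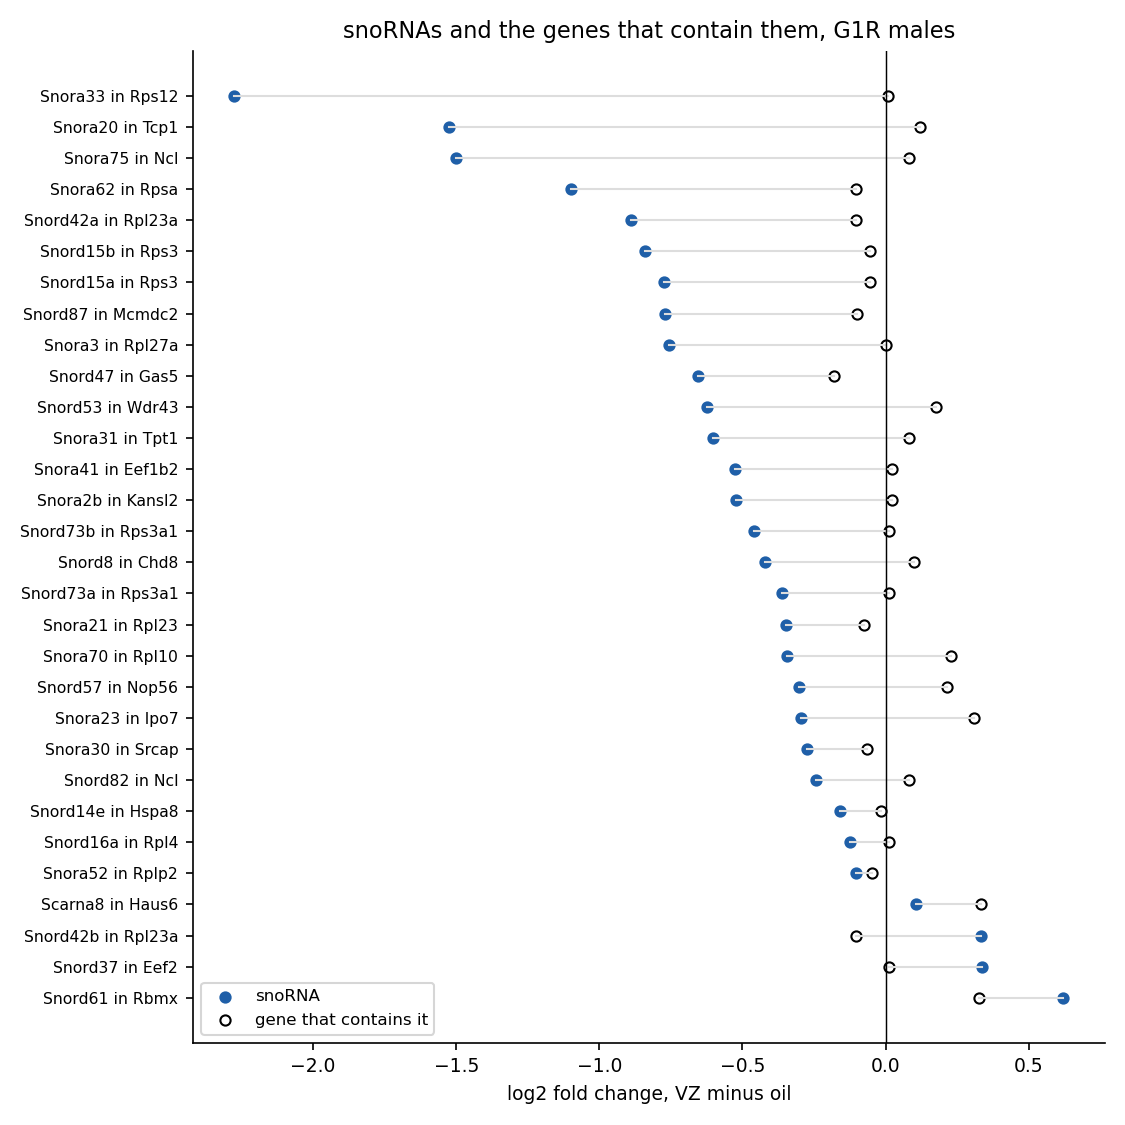
Log2 difference of VZ minus oil for 30 snoRNAs and for the genes whose coordinates contain them, joined pair by pair. Strand and intron were not checked. These genes lie between -0.18 and 0.33, while 26 of the 30 snoRNAs lie below 0.

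Set beside the other groups, the snoRNA levels of both groups lay near an end of the range of the series. The mean level of the 54 snoRNAs was 9.62, 9.53 and 9.45 in the oil arrays and 9.01, 9.11 and 8.88 in the VZ arrays. Its group mean was 9.54 ± 0.084 (SD, n = 3) in G1R Oil M, and 8.997 ± 0.11 in G1R VZ M. Neither stood alone among the 11 groups, since G2R VZ M had 9.53 ± 0.34 and G1R VZ F had 9.04 ± 0.098. The other male oil group, G2R Oil M, had 9.14 ± 0.22, its array range of 8.92 to 9.36 lying under that of G1R Oil M. G1R DEHP M had 9.47 ± 0.39, with arrays from 9.09 to 9.87, a wide spread for 1 group. Directly against DEHP, 22 of the 54 were lower with VZ at an unadjusted p under 0.05 (2.04% of all genes) and 0 higher, with a median of -0.40. The VZ difference in G1R males was below that in G2R males for 44 of 54 snoRNAs at that p (7.91% of all genes), where the G2R median itself was 0.39. It was below that in females for 3 of 54 (3.30% of all genes), and the female median was -0.20. No single probe passed an adjusted p of 0.05 in these 3 tests of a difference in limma, the smallest adjusted p being 0.848, 0.0984 and 0.631, while 1443, 5744 and 2207 probes (4.06%, 16.2% and 6.21%) had an unadjusted p under 0.05.

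**Figure D4:**
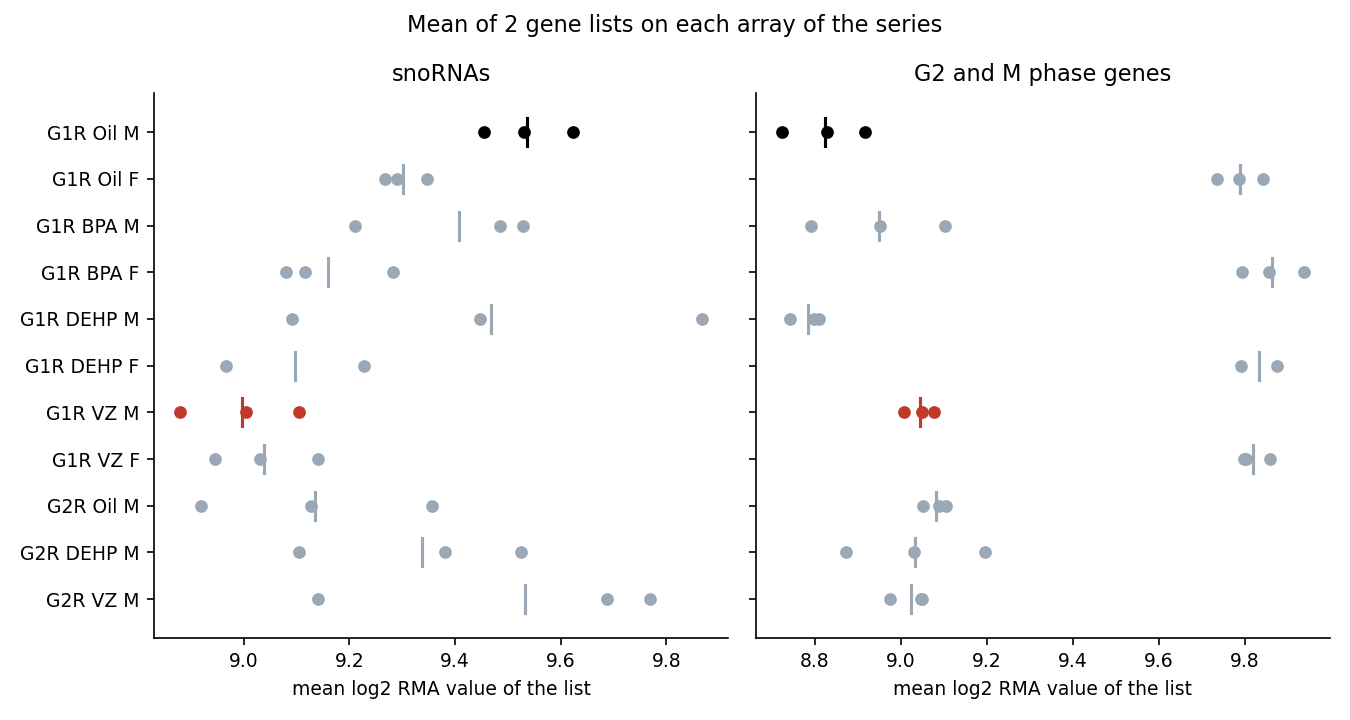
Mean log2 level of the snoRNAs (left) and of the G2 and M phase genes (right) in each array of the 11 groups, with separate level axes. The 3 G1R VZ M arrays lie at 8.88 to 9.11 for snoRNAs, under the 3 G1R Oil M arrays at 9.45 to 9.62, and at 9.01 to 9.08 for G2 and M phase genes, above the oil arrays at 8.72 to 8.92.

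Genes that act in G2 and mitosis lay mostly above 0 with VZ. Of 27 measured, 26 lay above 0 (47.3% of all genes), 14 were higher and 0 lower at an unadjusted p under 0.05, and 13 had all VZ arrays above all oil arrays (13.7% of all genes). At that p 8.99% of all genes and 18.5% of the highest level bin were higher. The median was 0.19, against 0.09 in the highest level bin, which holds 17 of them. With cyclic loess 9 were higher and with the Sertoli marker mean as a covariate 8. Without oil array 1 the number was 7, without oil array 3, VZ array 1 or VZ array 2 it was 9, and without the other arrays it was 10 and 17.

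Kif11, the motor that pushes spindle poles apart, had levels of 8.76, 8.92 and 9.02 with oil and 9.43, 9.39 and 9.33 with VZ. No array overlapped, and the log2 difference was 0.48 (SE 0.11, limma adjusted p = 0.0802). In BPA-exposed males the Kif11 difference from the same oil arrays was 0.34. Prc1, which bundles microtubules at the spindle midzone, had 8.12, 7.98 and 7.99 with oil and 8.53, 8.27 and 8.54 with VZ, a difference of 0.42. Top2a, the topoisomerase that untangles chromosomes, had 9.43, 9.57 and 9.58 with oil and 9.77, 9.81 and 9.89 with VZ, a difference of 0.29. The condensin subunit Smc4 (0.34), the kinetochore protein Nuf2 (0.35), Nusap1 (0.34) and cyclin Ccna2 (0.36) had similar differences, and Birc5 was below 0 (-0.07). Cdk1, the mitotic kinase, had a difference of 0.36 and an unadjusted p of 0.0564 in limma.

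The mean level of the G2 and M phase genes was 8.72, 8.92 and 8.83 in the oil arrays and 9.08, 9.01 and 9.05 in the VZ arrays. Female germ cells had group means from 9.79 to 9.86, and G2R Oil M had 9.08 ± 0.027 (SD, n = 3), so the G1R VZ M arrays lay near the oil arrays of the next generation. G1R BPA M had 8.95 ± 0.16, with arrays from 8.79 to 9.10, the highest of them above all G1R VZ M arrays. A higher level than in G1R Oil M was thus not particular to VZ. Directly against DEHP, 18 of the 27 genes (66.7%) were higher with VZ at an unadjusted p under 0.05, where 1.47% of all genes were, with a median of 0.27. The VZ difference in G1R males exceeded that in G2R males for 10 genes (8.89% of all genes) and was below it for 1, and it exceeded that in females for 5 (3.30% of all genes). All of these tests use the same 3 G1R VZ M arrays.

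In other cell cycle and germ cell groups the shares are read beside the 8.99% of all genes, and the 18.5% of the highest level bin, that were higher at an unadjusted p under 0.05. Of 22 genes of the G1 phase (cyclins, inhibitors and pocket proteins), 5 were higher and 0 lower, with a median of 0.15 (bin median 0.03). Of 30 meiosis and oocyte genes, 5 were higher and 0 lower, with a median of 0.13 (bin median 0.03). Sycp3, a protein of the axis of meiotic chromosomes, led them with levels of 8.73, 9.48 and 9.39 with oil and 10.23, 9.82 and 9.65 with VZ, a log2 difference of 0.70 (SE 0.18, limma adjusted p = 0.0867). Its VZ arrays lay above all oil arrays but far below the female oil mean of 12.17. Of 19 regulators of spermatogonial stem cells, 1 was higher and 0 lower, with a median of -0.04 (bin median 0.03).

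Genes that write and carry epigenetic marks are read beside the same shares, and beside the 10.3% of all genes that were lower. Of 19 DNA methylation genes, 4 were higher and 2 lower, with a median of 0.05 (bin median 0.09), which turned to -0.0091 with cyclic loess. Of 33 histone methylation enzymes, 4 were higher and 0 lower with a median of 0.10 (bin median 0.09), led by the Polycomb methyltransferase Ezh2. Its levels were 9.52, 9.68 and 9.81 with oil and 10.09, 10.10 and 9.88 with VZ, a log2 difference of 0.35 (SE 0.091, limma adjusted p = 0.0880). Of 49 imprinted genes, 4 were higher and 1 lower with a median of 0.09 (bin median 0.03), among them the phosphatase Inpp5f (0.29) and the amino acid transporter Slc38a4 (0.40).

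Groups of stress response and general upkeep had medians between -0.01 and 0.07, and of all genes 8.99% were higher and 10.3% lower at an unadjusted p under 0.05. Of 31 genes of xenobiotic and oxidative stress response 3 were higher and 1 lower (median 0.01), of 31 immediate early and stress genes 0 were higher and 1 lower (median -0.01), and of 21 apoptosis genes 2 were higher and 0 lower (median 0.07). Of 77 oxidative phosphorylation subunits 4 were higher and 3 lower (median 0.01). Of 26 replication-dependent histone genes none had an unadjusted p under 0.05. The 1190 olfactory and vomeronasal receptor genes, which germ cells hardly express, had 9 higher and 149 lower genes and a median of -0.12, the same as the lowest level bin, in which 1088 of them lie. Of 11 endothelial markers 1 was higher and 0 lower (median 0.04). Of 8 Y-linked genes 7 lay above 0 with a median of 0.17 (bin median -0.08), 0 were higher and 1 lower at that p, and after cyclic loess 3 were higher. Their mean level was 8.30, 8.48 and 8.44 in the oil arrays and 8.65, 8.55 and 8.49 in the VZ arrays, which did not overlap.

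**Figure D5:**
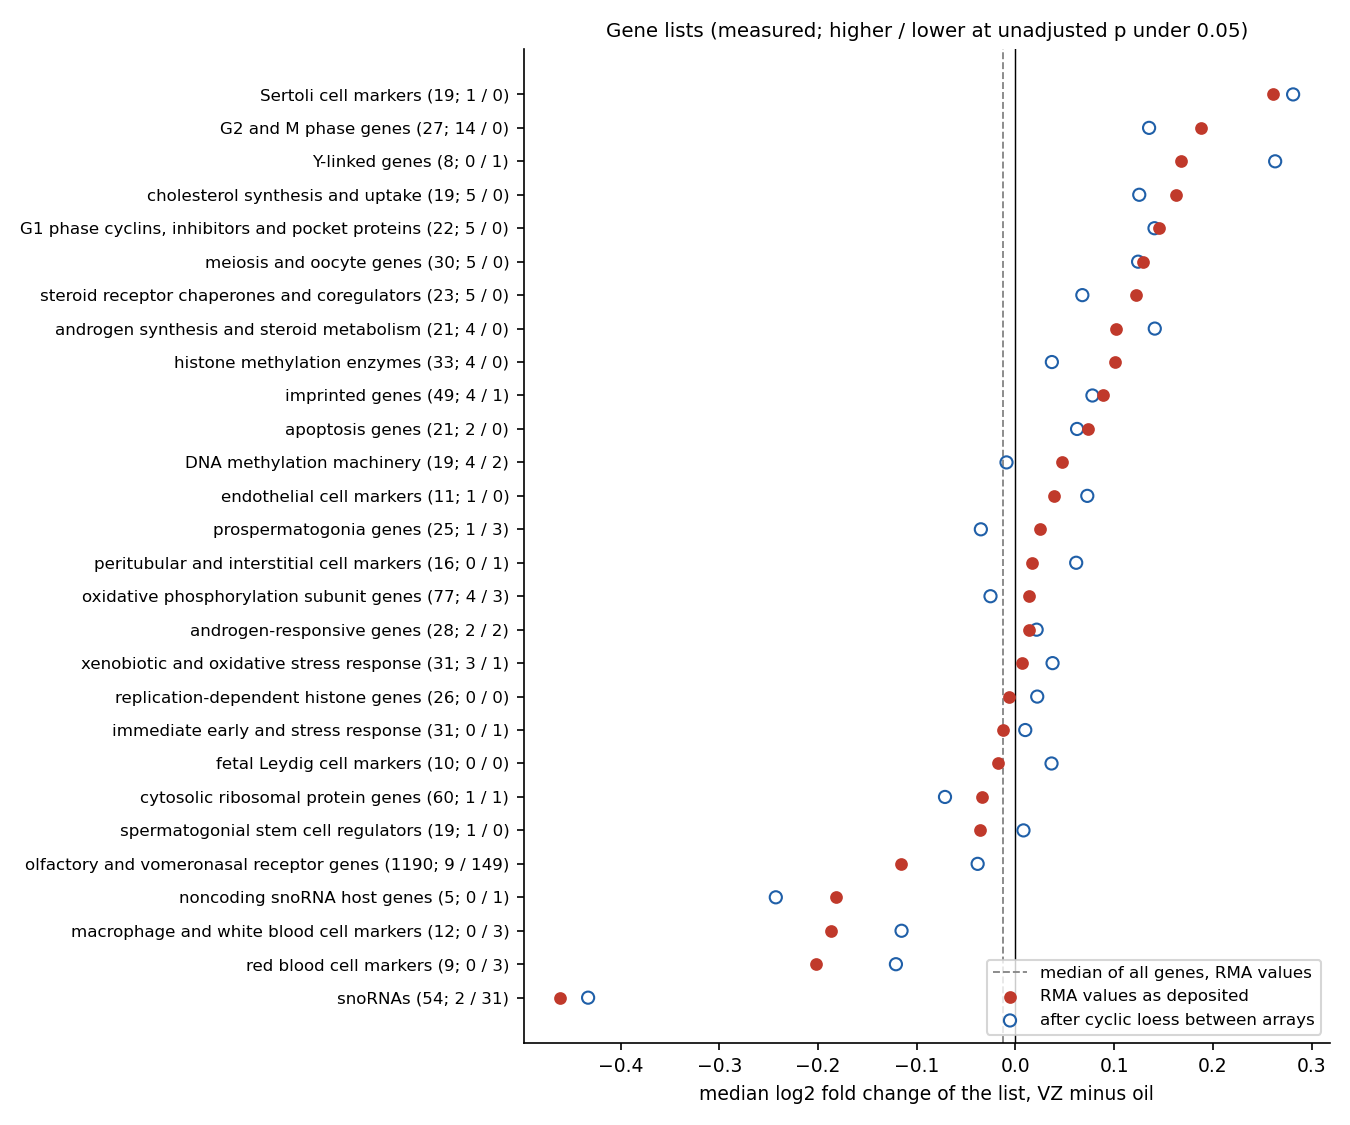
Median log2 difference of VZ minus oil for each gene list, with RMA values and after cyclic loess, and the number of genes higher and lower at an unadjusted p under 0.05. With RMA values the snoRNAs have the lowest median (-0.46) and the Sertoli cell markers the highest (0.26), where the median of all genes is -0.01.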

How the data were processed

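The deposited values, per the labels and the methods of the study, are log2 levels that the authors made from the array scans by RMA in Partek; scan intensities were not used here. They run from 2.59 to 14.82. Samples were grouped by their titles. All 32 arrays were fitted with 1 mean per group (11 groups) in limma 3.58.1 under R 4.3.3, with moderated variances (21 residual and 3.67 prior degrees of freedom) and Benjamini-Hochberg adjustment over 35556 probes, two-sided, at a threshold of 0.05. An exact permutation test of 3 against 3 arrays cannot go below 0.1. The platform annotation pairs 21789 probes with 1 gene (19938 genes), 1621 with several and leaves 12146 unlisted; a gene with several probes was read on the one of highest mean level over all arrays, and single-gene symbols were updated by Entrez ID for 21698 probes. Named genes were those passing the test, Hsd17b3 (which the study names), the 12 smallest p and, among genes with an unadjusted p under 0.05 and no overlap, the 8 largest differences in each direction, up to 4 members of each list by p, and for each test of a difference the passing probes and the 4 smallest p; members outside it were picked for their role after values were seen. The members and the 28 gene lists were chosen with earlier results of these data known. The fit was tested on simulated data, in which most probes given the smallest planted change did not pass. Alternatives changed the moderation, probe filter, normalization (cyclic loess), weights, arrays fitted, a replicate block and each array left out; figures were drawn with matplotlib 3.10.9. The number of arrays limits the precision.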

Additional observations from a re-analysis of the deposited data

How the results depend on the processing

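The count of 2 probes past the adjusted test of VZ against oil moved with nearly every choice tried. It was 9 with unmoderated variances, 1 among probes above the median level, 111 over probes that name 1 gene, 5 after cyclic loess, 1804 with array weights, 0 with the 12 arrays of G1R males, 12 with only the 6 compared arrays, and 0 to 19 with 1 array left out, the highest without oil array 2. The replicate numbers of the labels were not taken as pairs. Oil and VZ arrays of the same number had correlations of their deviations of -0.0892, -0.112 and -0.106, and other combinations had -0.0599 to 0.154. With so few arrays such values cannot settle whether samples were paired. With the numbers as a replicate block the count was 2. The Sertoli marker covariate, added after seeing the data, also gave 2. For the tests of a difference, each with 0 probes, the sex difference had 1 with unmoderated variances. The generation difference had 1 with the replicate block and 0 to 200 with 1 array left out, 200 without G2R VZ M array 1, 28 without G1R Oil M array 2 and 5 without G2R Oil M array 3. VZ against DEHP had 0 to 9, the highest without DEHP array 3. The cause of these moves was not tested. The 6493 probes at an unadjusted p under 0.05 were 4225 to 6565 with 1 array left out, the fewest without oil array 1. Cyp11b1, an adrenal steroid enzyme, reversed to 0.0701 without oil array 3 and had its lowest value, -0.23, without oil array 1, and Nr5a1, a steroidogenic transcription factor, to 0.0298 after loess, 0.0260 without oil array 1 and 0.00067 without oil array 3, its lowest value being -0.18 without oil array 2. Of 252 list medians under the alternatives, 208 moved by less than the SD between arrays of the list's mean level and 44 by more. In 27, over 11 lists, the sign changed: the Sertoli markers went from 0.26 to -0.04 when their own mean was the covariate, and the others had a median of at most 0.0476 in size. Low signal limits what can be read of genes of low level.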

Other observations

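MicroRNA and other short noncoding genes were examined after their values were seen. Of 297 genes that RefSeq types as miRNA, 7 were higher and 90 lower with VZ at an unadjusted p under 0.05, with a median log2 difference of -0.15 and a median oil level of 5.76, which is in the lowest of 4 level bins, whose median was -0.12. At that p 8.99% of all genes were higher and 10.3% lower, and 16.5% of the lowest level bin were lower. Of 675 lncRNA genes 23 were higher and 151 lower, with a median of -0.12. Their median oil level was 6.84, which is in the second-lowest bin, where 17% were lower and the median was -0.08. Of 18556 protein-coding genes, with a higher median oil level of 7.80, 1755 were higher and 1718 lower, with a median of -0.0047. Of 7 small nuclear RNAs 3 were lower and none higher, with a median of -0.42 at a median oil level of 9.85. These probes read precursors or host transcripts as well as mature RNA.

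The largest higher miRNA gene was Mir465 on the X chromosome, with levels of 6.45, 6.48 and 6.84 with oil and 7.65, 7.30 and 7.03 with VZ, a log2 difference of 0.74 (SE 0.29, limma adjusted p = 0.177). Its mature forms in RefSeq, with the seed (bases 2 to 8) in capitals, are shown since the probe cannot tell the arms apart.
mmu-miR-465a-5p: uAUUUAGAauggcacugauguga
mmu-miR-465a-3p: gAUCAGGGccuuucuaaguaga
The arms have different seeds.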
